A study of Rattus norvegicus with 15 samples.

Results

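Multifidus muscle RNA of rats given plasma-derived mitochondria together with vitamin D was compared with that of rats given the mitochondria without vitamin D, to ask what adding vitamin D changed. The members were the read counts of the 4 libraries labelled pMT/VitD and the 4 labelled pMT, which are 8 of the 15 libraries of the series. The rats were male wild-type Sprague Dawley rats aged 12 weeks, and both groups had undergone the same spinal surgery, a left hemilaminectomy with spinal nerve ligation. The pMT group received mitochondria isolated from human plasma, injected into the left paraspinal muscles at 25 µg per site (50 µg per rat) in 100 µL of buffer. The pMT/VitD group received the same dose of mitochondria mixed with 150 µg of cholecalciferol per site (300 µg per rat). For the pMT group, injection on day 14 after surgery and collection on day 28 are stated, while no days are stated for the pMT/VitD group. The remaining 7 libraries came from uninjured control rats, rats with surgery alone and rats given vitamin D alone after surgery, and they entered only where said. Nothing in the labels says that each library came from its own rat, so the p-values measure the spread between these libraries.

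Cholecalciferol is the precursor of the hormone calcitriol, which binds the vitamin D receptor (Vdr). The receptor pairs with a retinoid X receptor (Rxra, Rxrb or Rxrg) on DNA, and the enzyme Cyp24a1, which degrades the hormone, is its most strongly induced target in many tissues. In skeletal muscle, the receptor is sparse in adult fibres, and vitamin D status has been tied to fibre size and mitochondrial respiration.

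Total counts were 57208844 to 73557878 for pMT and 52342134 to 62249505 for pMT/VitD. Levels are given as CPM, the count of a gene relative to the size of its library, after scaling with TMM factors, which were 0.905 to 1.15 for pMT and 0.895 to 1.04 for pMT/VitD. Skeletal muscle fibre genes dominated every library. The 7 fibre markers (Acta1, Ckm, Myh1, Myh2, Myh4, Myh7 and Ttn) were present in both groups, and none of them was absent. They summed to 109331 to 123883 CPM in the pMT group and 129604 to 145073 CPM in the pMT/VitD group. These sums did not overlap, while 3 of the 7 markers had a log2 fold change above 0 and 4 below. No pair of the 8 libraries was within sampling noise of each other, with a median squared difference of 4.56 to 39.9 times that of sampling.

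Replicate 4 of each group stood apart from its own group and resembled the other. The distance between libraries was taken as the SD over 11216 genes of their log2 ratio. It was 0.21 to 0.36 among pMT replicates 1 to 3 and 0.22 to 0.42 among pMT/VitD replicates 1 to 3. The pMT replicate 4 lay 0.40 to 0.59 from the other pMT libraries and 0.23 to 0.38 from pMT/VitD replicates 1 to 3. Its nearest library was pMT/VitD replicate 1, at 0.23. The pMT/VitD replicate 4 lay 0.44 to 0.53 from its own group and 0.27 to 0.33 from pMT replicates 1 to 3, with pMT replicate 2 the nearest. The replicate 4 libraries of the groups were 0.57 from each other. Both therefore went against their labels in distance, and the calls, the gene lists and the genes that turn on them are given with and without them. The nearest library of pMT/VitD replicate 3 was also of the other group, pMT replicate 1 at 0.33. It lay 0.36 and 0.46 from pMT replicates 2 and 3, and 0.37 and 0.42 from pMT/VitD replicates 1 and 2.

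**Figure D1:**
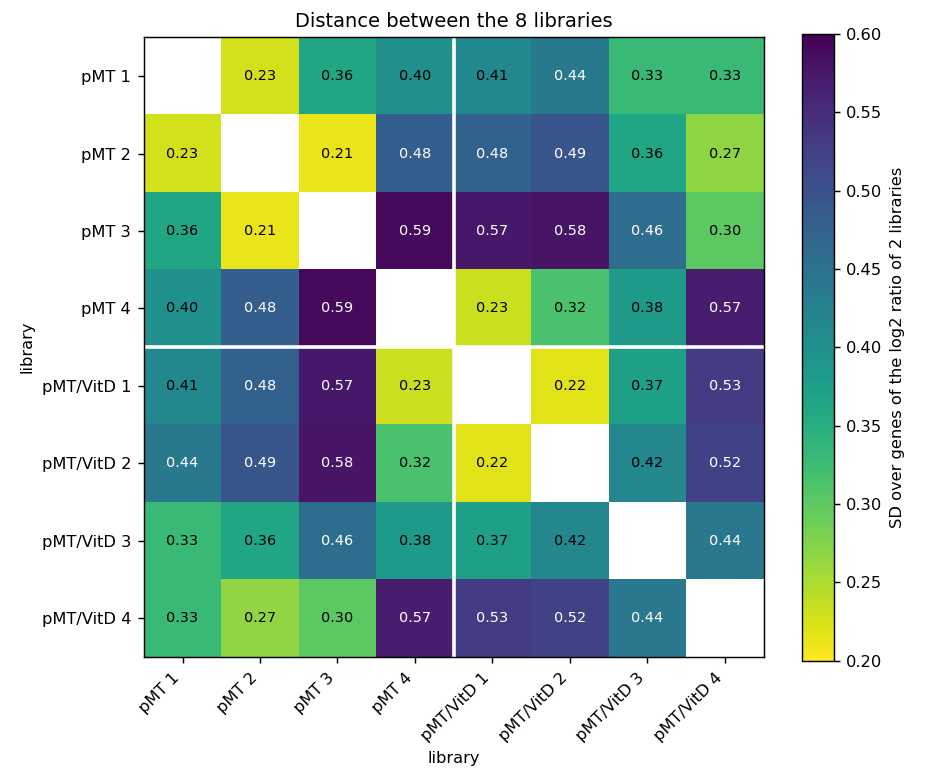
Each cell gives the SD over genes of the log2 ratio of 2 libraries, for the 4 pMT and 4 pMT/VitD libraries, and white lines part the groups. The row of pMT replicate 4 is darker (0.40 to 0.59) toward its own group than toward pMT/VitD replicates 1 to 3 (0.23 to 0.38), and pMT/VitD replicate 4 shows the reverse.

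The libraries also differed in how expression depended on gene length. For each library, the log2 deviation of every gene from the mean of the 8 libraries was ranked against the relative length of the gene, taken as its mean count over its mean TPM. Spearman's rho across 15650 genes was 0.13, 0.49, 0.56 and -0.34 in pMT replicates 1 to 4 and -0.46, -0.45, -0.15 and 0.28 in pMT/VitD replicates 1 to 4. Long genes were thus relatively high in pMT replicates 1 to 3 and in pMT/VitD replicate 4, and short genes were high in the other 4 libraries. The group means differed by -0.41 (pMT 0.21 ± 0.41, pMT/VitD -0.20 ± 0.35, SD, n = 4 each, exact two-sided permutation test over libraries p = 0.2, where 0.0286 is the smallest possible). Without replicate 4 the difference was -0.75, and its exact permutation p of 0.1 is the smallest that 3 against 3 allow. Among the 7 other libraries, measured against the mean of all 15, rho ran from -0.04 to 0.32, and pMT/VitD replicates 1 to 3 and pMT replicate 4 were below that range at -0.19 to -0.45. pMT replicates 2 and 3 were above it at 0.41 and 0.51.

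**Figure D2:**
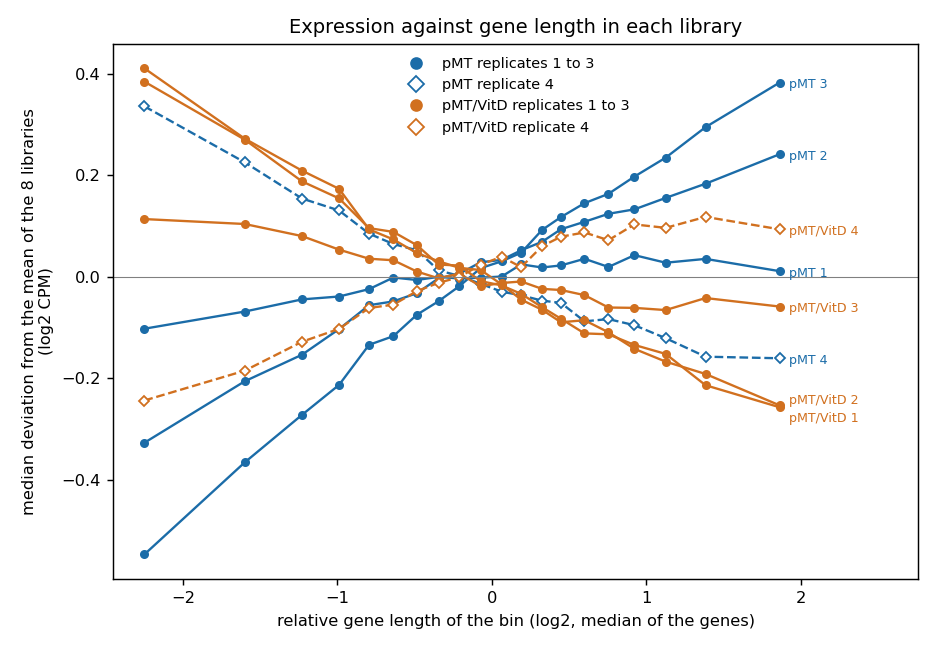
The x axis gives the relative gene length (log2) of 20 bins of genes, and the y axis the median log2 CPM deviation of their genes from the mean of the 8 libraries, with 1 line per library and dashed lines for replicate 4. The lines of pMT replicates 1 to 3 and pMT/VitD replicate 4 rise from short to long genes, and the others fall.

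With all 8 libraries, edgeR's quasi-likelihood test called 0 of 15711 genes at a Benjamini-Hochberg adjusted p under 0.05 (0%), and the smallest adjusted p was 0.652. At an unadjusted p under 0.05 there were 1185 genes (7.54%), 661 higher (4.21%) and 524 lower (3.34%) in the pMT/VitD group. With the same 8 libraries, DESeq2 called 67 genes, 61 of them higher, and left 11270 without an adjusted p. The exactTest called 0, and 997 of its genes had an unadjusted p under 0.05. limma voom with sample quality weights called 5403 genes, and its weights were lowest for the replicate 4 libraries, 0.313 in pMT and 0.304 in pMT/VitD. The rule of the study's methods, a fold change of at least 2 with an unadjusted p under 0.05 from exactTest, gave 54 genes (0.344%), 34 higher and 20 lower, of which 48 had a mean under 1 CPM. That count was 574 without replicate 4 of both groups, 186 without pMT replicate 4 alone, 202 without pMT/VitD replicate 4 alone and 114 without pMT/VitD replicate 3.

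Without replicate 4 of both groups, 2517 of 15782 genes were called (15.9%), 1371 higher (8.69%) and 1146 lower (7.26%) in the pMT/VitD group, with 0.0153 the smallest adjusted p. When the length trend was taken out of each library, 119 were called (0.754%), 66 higher (0.418%) and 53 lower (0.336%), and 106 of these were also among the 2517, each in the same direction. At an unadjusted p under 0.05 there were 5375 genes (34.1%) with the trend in place and 3754 (23.8%) with it removed. With the trend in place, the number called depended on the libraries kept, and leaving out 1 more leaves 2 against 3 libraries. There were 0 without pMT replicate 2 (3622 at an unadjusted p under 0.05), 0 without pMT/VitD replicate 1 (3885), 13 without pMT replicate 3 and 6 without pMT/VitD replicate 2. There were 4458 without pMT/VitD replicate 3 and 2944 without pMT replicate 1. The replicate 4 libraries were not used to find the 2517 genes, and their levels can be set beside them. Both had been set aside for their distance in these data, so the shares that follow describe that distance and are no independent check. On the log2 scale, pMT replicate 4 was nearer to the pMT/VitD mean for 2271 of these genes (90.2%), and pMT/VitD replicate 4 was nearer to the pMT mean for 2227 (88.5%). For the 119 genes called with the length trend removed, these shares were 86.6% and 83.2%.

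**Figure D3:**
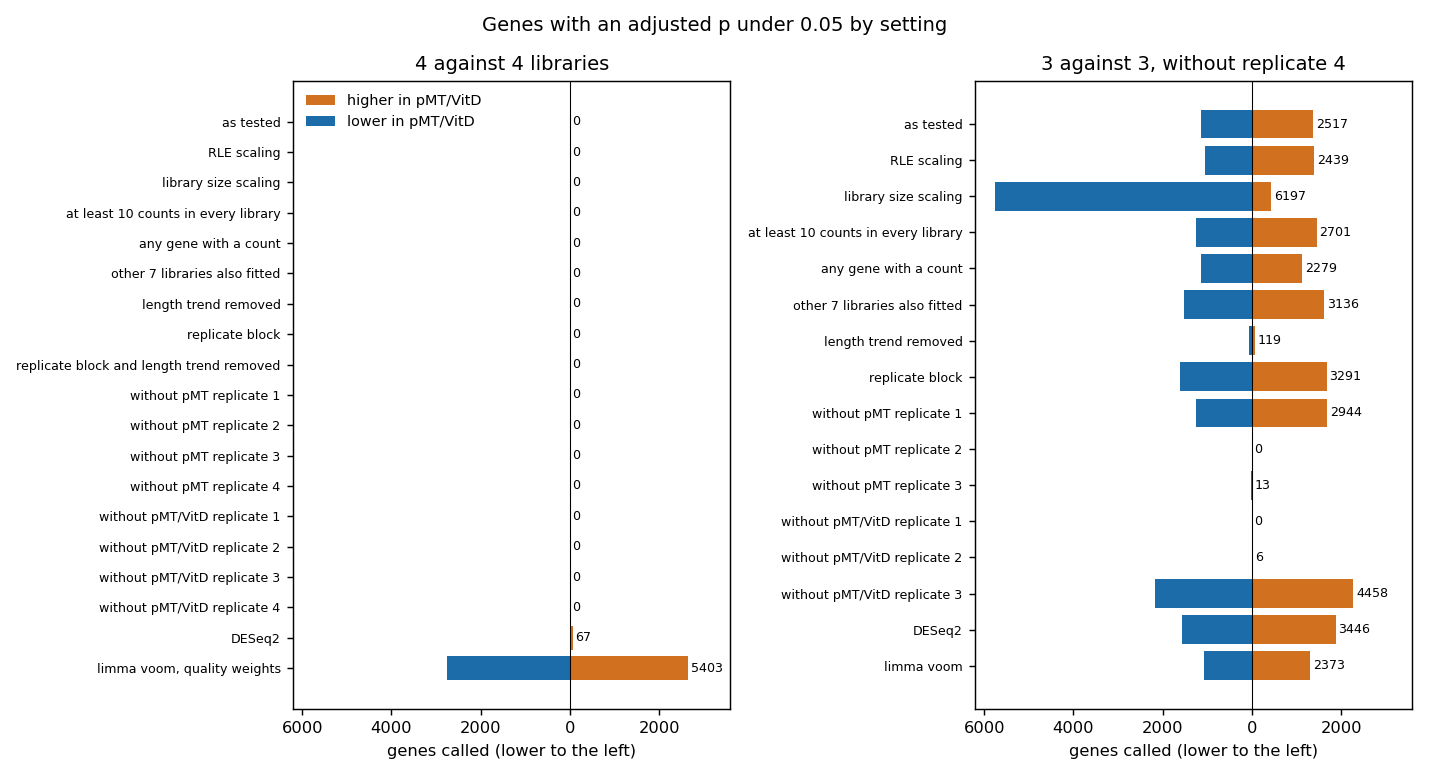
Bars give the number of genes with an adjusted p under 0.05 in each setting, those higher in the pMT/VitD group to the right and those lower to the left, with the total printed. In the left panel only DESeq2 (67) and limma voom with quality weights (5403) called any gene, and in the right panel, without replicate 4 of both groups, the total ran from 0 to 6197. Settings without a named replicate leave out 1 library.

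The calls without replicate 4 followed gene length. Of the 3130 genes with the shortest relative length, 961 were called higher and 40 lower, and of the 3130 longest, 17 were called higher and 587 lower. The median log2 fold change was 0.39 over the shortest and -0.29 over the longest, and with all 8 libraries it was 0.20 and -0.17. After the trend was removed, 20 higher and 14 lower calls lay among the shortest and 10 and 5 among the longest. Under library size scaling in place of TMM, the median log2 fold change of all genes moved from -0.02 to -0.21 with 8 libraries and from -0.02 to -0.33 without replicate 4. The calls without replicate 4 then became 429 higher and 5768 lower in place of 1371 and 1146.

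Genes of the vitamin D pathway showed no difference past the threshold with all 8 libraries, which held for all 15711 genes tested. Of the 22 genes of the list, 13 could be tested, with 6 of them higher, 7 lower and a median log2 fold change of -0.01, beside -0.02 over all genes tested. Cyp24a1 had 0 counts in all 15 libraries, and 0 counts allow at most 3 per library, with counting error only. The carrier Gc, the uptake receptor Lrp2 and the calcium genes Trpv6 and S100g were also at 0 in the 8 libraries, as was Tnfsf11.

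The receptor Vdr had 0.606, 0.520, 0.599 and 0.245 CPM in pMT replicates 1 to 4 and 0.533, 0.351, 0.653 and 0.810 CPM in pMT/VitD replicates 1 to 4. These were 14 to 46 counts, the groups overlapped and the log2 fold change was 0.24 (SE 0.36, quasi-likelihood adjusted p = 0.847). Without replicate 4 it was -0.17 (SE 0.31, adjusted p = 0.746), so the direction turned. Its partner Rxrg, the retinoid X receptor most abundant here, had 77.6, 76.2, 74.8 and 72.8 CPM in the pMT libraries and 84.2, 88.9, 86.6 and 87.0 CPM in the pMT/VitD libraries. Rxrg was the only one of the 13 whose groups did not overlap, beside 2.66% of all genes that lay higher without overlap. Its log2 fold change was 0.20 (SE 0.08, unadjusted p = 0.0249, quasi-likelihood adjusted p = 0.652), and under library size scaling without replicate 4 it was -0.12.

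Rxra, another partner, had 19.6, 26.7, 35.8 and 8.81 CPM in the pMT libraries and 12.8, 15.8, 14.9 and 40.5 CPM in the pMT/VitD libraries. Replicate 4 was the lowest pMT and the highest pMT/VitD library, and the log2 fold change was -0.11 with all 8 libraries (SE 0.46) and -0.91 without replicate 4 (SE 0.20, adjusted p = 0.0246). With the length trend removed as well it was -1.13 (adjusted p = 0.0606). Thbd, the endothelial anticoagulant thrombomodulin, was the other vitamin D gene called lower without replicate 4 (log2 fold change -0.29, SE 0.08, adjusted p = 0.0408), and it was not called with the length trend also removed (-0.14, adjusted p = 0.265). Of the 13 genes, 2 were thus called lower and 0 higher without replicate 4, beside 7.26% and 8.69% of all genes.

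The enzymes that activate vitamin D were low or alike. Cyp27a1, a sterol hydroxylase of mitochondria, ran from 25.3 to 31.1 CPM in the pMT group and from 24.0 to 30.2 CPM in the pMT/VitD group. Cyp2r1, the liver hydroxylase, was at 0.143 to 0.255 and 0.211 to 0.295 CPM, and Cyp27b1, which makes calcitriol, had at most 10 counts and was not tested. The targets Klf4, Nrip1, Atp2b1 and Spp1 had log2 fold changes of -0.20 (SE 0.10), 0.03 (SE 0.17), -0.12 (SE 0.18) and 0.63 (SE 0.66). Without replicate 4 they were -0.30, -0.10, -0.35 and 0.99, with an adjusted p of 0.0609 to 0.704. Pdia3, a membrane binding protein of calcitriol, was at 94.0 ± 5.91 and 88.9 ± 8.91 CPM (SD, n = 4 each), and Rxrb was at 27.3 ± 3.27 and 27.6 ± 2.27 CPM. Cubn, the uptake partner of Lrp2, was at 0.193 to 0.387 CPM in the pMT group and at 0 to 0.211 CPM in the pMT/VitD group, at 32 counts or fewer.

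The groups of 4 did not overlap for 795 genes (5.06%), 418 with higher (2.66%) and 377 with lower values (2.4%) in the pMT/VitD group. The following 16 were those with the smallest p whose mean log2 CPM was 1 or more. None passed the adjusted threshold. Adipor1, a receptor of the fat hormone adiponectin that is abundant in muscle, had 201, 193, 186 and 201 CPM in the pMT libraries and 265, 301, 249 and 257 CPM in the pMT/VitD libraries. All 4 pMT/VitD libraries were above all 4 pMT libraries, replicate 4 included, and the log2 fold change was 0.46 (SE 0.10, unadjusted p = 0.00108, adjusted p = 0.652). Without replicate 4 it was 0.50 (adjusted p = 0.0219), and with the length trend removed as well 0.45 (adjusted p = 0.0493).

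Ggact, a cyclotransferase that breaks down isopeptide links, had the largest fold among the higher genes at 2.20, 2.74, 2.62 and 3.05 against 4.14, 3.92, 4.26 and 4.57 CPM (log2 fold change 0.67, SE 0.13). It was 0.71 without replicate 4 (adjusted p = 0.0217) and 0.56 with the length trend also removed (adjusted p = 0.0814). Suds3, a subunit of the Sin3 histone deacetylase complex, had 31.3, 32.8, 31.7 and 36.4 against 44.0, 51.4, 45.3 and 41.1 CPM (0.46, SE 0.10). Ccm2, a scaffold protein of vessel junctions, had 23.7, 23.3, 21.7 and 26.8 against 29.9, 34.7, 30.7 and 32.8 CPM (0.42, SE 0.09). In Suds3 and Ccm2, pMT replicate 4 was the highest pMT library, and both genes remained past the threshold without replicate 4 when the length trend was removed (adjusted p = 0.0479 each). Svip, an inhibitor of endoplasmic reticulum degradation, Tatdn2, Zfp358 and Bmyc, a relative of the oncogene Myc, had log2 fold changes of 0.41 to 0.60 and were called higher without replicate 4, and not when the length trend was also removed.

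Among the lower genes, Mki67, the proliferation antigen Ki-67, had 5.13, 6.64, 6.79 and 6.62 CPM in the pMT libraries and 4.80, 3.71, 4.30 and 3.52 CPM in the pMT/VitD libraries. Its log2 fold change was -0.63 (SE 0.14, unadjusted p = 0.00166), and without replicate 4 it was -0.53 (adjusted p = 0.0516). Pxdn, the peroxidase that crosslinks collagen of basement membranes, had 42.2, 43.3, 46.0 and 40.5 against 34.8, 30.6, 32.3 and 34.5 CPM (-0.38, SE 0.08). Arhgap32, a GTPase activator, had 10.9, 10.3, 10.6 and 9.13 against 6.54, 5.74, 5.85 and 8.45 CPM (-0.62, SE 0.14). The replicate 4 libraries of Arhgap32 were the closest pair across the groups. Smchd1, a chromatin protein that silences repeats, Pros1, which encodes the anticoagulant protein S, Man1c1, Cttnbp2nl and LOC108348118 had log2 fold changes of -0.39 to -0.55. Pxdn, Arhgap32 and these 5 were called lower without replicate 4, and none of the 8 lower genes was called once the length trend was removed too (adjusted p from 0.0816 to 0.858).

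**Figure D4:**
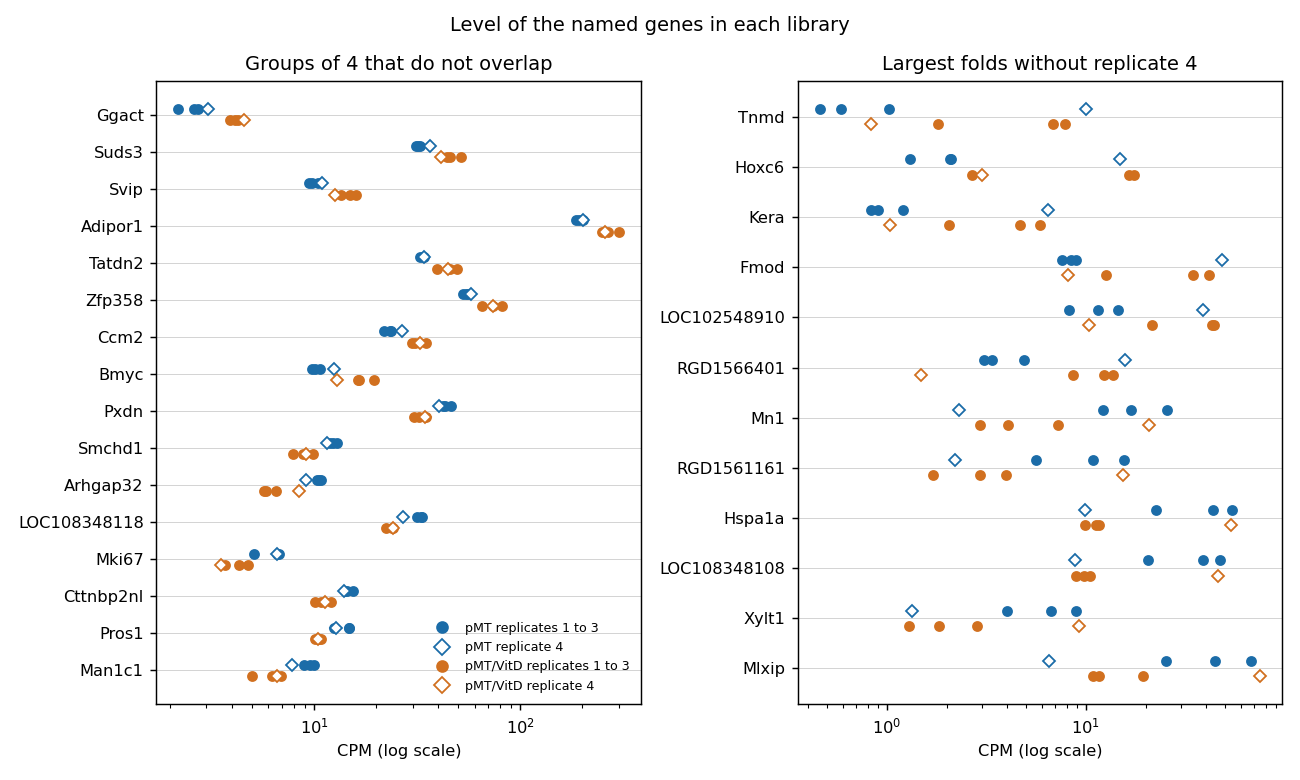
Each point is the CPM of a gene in 1 library on a log scale, for the genes with the smallest p whose groups of 4 did not overlap (left) and for those with the largest folds among the genes called without replicate 4 (right), with open diamonds for replicate 4. On the left no diamond lies within the other group, since the genes were chosen so. In Bmyc and Arhgap32 the diamond of pMT/VitD nonetheless lies nearest to a pMT library. On the right the diamonds of pMT lie on the side of pMT/VitD replicates 1 to 3. Those of pMT/VitD lie on the side of pMT replicates 1 to 3, except for Hoxc6, where pMT/VitD replicate 4 lies beside pMT/VitD replicate 3.

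Most genes of the respiratory chain and the ribosome were higher in the pMT/VitD group. Of the 38 nuclear genes listed for complex I, the entry enzyme of the respiratory chain, 37 were higher in the pMT/VitD group, with a median log2 fold change of 0.33. Of the 44 tested genes of complexes II to V, 41 were higher (median 0.29), and of the 77 cytosolic ribosomal protein genes all 77 were (median 0.36). Over all genes 46.3% were higher, and the median was -0.02. None of these genes passed the adjusted threshold with all 8 libraries. Genes of such a list move together and are short, with median relative lengths of -1.99, -2.06 and -2.15 on the log2 scale, where 0 is the median of all genes.

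The list means by library did not follow the group labels alone. The complex I genes averaged 6.99, 6.77, 6.59 and 7.45 log2 CPM in pMT replicates 1 to 4 and 7.50, 7.54, 7.26 and 6.82 log2 CPM in pMT/VitD replicates 1 to 4. The ribosomal protein genes averaged 8.15, 7.96, 7.75 and 8.64 against 8.74, 8.73, 8.48 and 8.11. In both, pMT replicate 4 was the highest pMT library and pMT/VitD replicate 4 the lowest of its group. Without replicate 4 the medians were 0.71, 0.61 and 0.69, with 35, 31 and 71 genes called higher and 0 called lower. Over all genes 8.69% were called higher and 7.26% lower, and of the 3130 shortest genes 961 were called higher and 40 lower. With the length trend removed as well the list medians were 0.15, 0.10 and 0.14, with 2, 1 and 1 called, beside 0.01 over all genes and 0.418% called higher.

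Cox4i1, a nuclear-encoded subunit of cytochrome oxidase, had 711, 655, 542 and 1097 CPM in the pMT libraries and 1098, 1077, 927 and 691 CPM in the pMT/VitD libraries. Its log2 fold change was 0.34 with all 8 libraries (SE 0.23, adjusted p = 0.682), 0.71 without replicate 4 (SE 0.13, adjusted p = 0.0201) and 0.20 with the length trend also removed (adjusted p = 0.106). Ndufb9 and Ndufa4, both on the complex I list, had 390, 329, 280 and 578 against 599, 581, 491 and 344 CPM, and 430, 358, 316 and 562 against 589, 615, 467 and 351 CPM. In both, pMT replicate 4 was above the other pMT libraries and close to pMT/VitD replicate 1. Ndufs1, the largest complex I subunit, differed from them, at 190 ± 13.6 and 189 ± 12.2 CPM (SD, n = 4 each, log2 fold change -0.01, SE 0.10). Ndufa3 had the largest log2 fold change of the list, 0.56 (SE 0.22, unadjusted p = 0.0297). Atp5b, the catalytic subunit of ATP synthase, had 0.19 (SE 0.13).

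Transcripts of the 13 proteins encoded in mitochondrial DNA made up 11.1% to 12.9% of counts in pMT replicates 1 to 3 and 22.6% in pMT replicate 4. In pMT/VitD replicates 1 to 3 they made up 13.5% to 17.7%, and in pMT/VitD replicate 4 11.5%. All 13 had a log2 fold change above 0, with a median of 0.17, of 0.73 without replicate 4 (12 called higher, beside 8.69% of all genes) and of 0.34 with the length trend also removed (0 called). With 8 libraries and the trend removed it was -0.02. Under library size scaling the median with 8 libraries was 0.02, beside -0.21 for all genes. COX1, a core subunit of cytochrome oxidase, had 36645, 32334, 29618 and 72681 CPM against 56814, 41807, 55512 and 37709 CPM (log2 fold change 0.16, SE 0.30, adjusted p = 0.881). The counts were made on the rat genome, and whether reads of the injected human mitochondria were among them was not tested.

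Genes that build and maintain mitochondria did not share that direction. Of 40 genes, 24 were higher, with a median of 0.06, and 9 were called higher and 3 lower without replicate 4, beside 8.69% and 7.26% of all genes. With the length trend also removed 1 was called higher, beside 0.418% of all genes. Ppargc1a, the coactivator PGC-1α, was at 23.6 ± 2.37 and 21.6 ± 2.36 CPM (SD, n = 4 each, log2 fold change -0.12, SE 0.11, adjusted p = 0.745). Timm23, a channel of the inner membrane import machinery, had 197, 178, 157 and 245 against 284, 313, 287 and 226 CPM. Its log2 fold change was 0.51 (SE 0.16, adjusted p = 0.652), 0.74 without replicate 4 (adjusted p = 0.0195) and 0.44 with the length trend also removed (adjusted p = 0.0479). Gabpa, a transcription factor of respiratory genes, had 20.9, 21.9, 21.3 and 15.3 against 13.1, 16.1, 12.3 and 19.6 CPM, and it was called lower without replicate 4 (-0.62, SE 0.12, adjusted p = 0.0201), and not with the length trend also removed (-0.39, adjusted p = 0.104).

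Among the ribosomal protein genes, the 4 most abundant were Rps2, Rplp0, Rpsa and Rpl4. Rps2 had 947, 913, 773 and 1181 CPM in the pMT libraries and 1305, 1314, 1356 and 1017 CPM in the pMT/VitD libraries. Rplp0 had 959, 862, 739 and 990 against 1075, 1147, 1140 and 1027 CPM, so its groups did not overlap. Their log2 fold changes were 0.39 (SE 0.16) and 0.31 (SE 0.13), with an adjusted p of 0.652 each. Rpl37 had the largest of the list, 0.53 (SE 0.28), and Rpl3 the smallest, 0.01 (SE 0.18), or -0.05 under library size scaling without replicate 4.

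Transcripts of ribosomal proteins are known to start with a C and a run of pyrimidines, through which their translation is controlled together. The 30 bases around the annotated start of these 4 genes are shown because all members of the list lay in one direction. They come from RefSeq promoters of the GRCr8 assembly, which is newer than the rn6 build of the counts, and hold 15 bases on each side. Capitals mark a C followed by at least 4 C or T that begins within 5 bases of the start, read on the gene's strand. In Rplp0 a C before the capitals also meets this rule, so the run there is longer than marked.
Rps2: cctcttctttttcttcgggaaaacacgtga
Rplp0: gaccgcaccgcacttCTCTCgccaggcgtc
Rpsa: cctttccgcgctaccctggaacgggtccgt
Rpl4: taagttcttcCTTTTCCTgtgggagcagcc
They lie at chr10:14251833-14251862 (plus strand), chr12:46718376-46718405 (minus strand), chr8:128728864-128728893 (plus strand) and chr8:73566462-73566491 (plus strand). Of the 58 ribosomal protein genes with a promoter in the table, 37 held such a run (63.8%), beside 4656 of all 27457 promoters (17.0%). It was found in 8 of 33 complex I promoters, 6 of 35 of complexes II to V and 5 of 27 proteasome promoters.

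**Figure D5:**
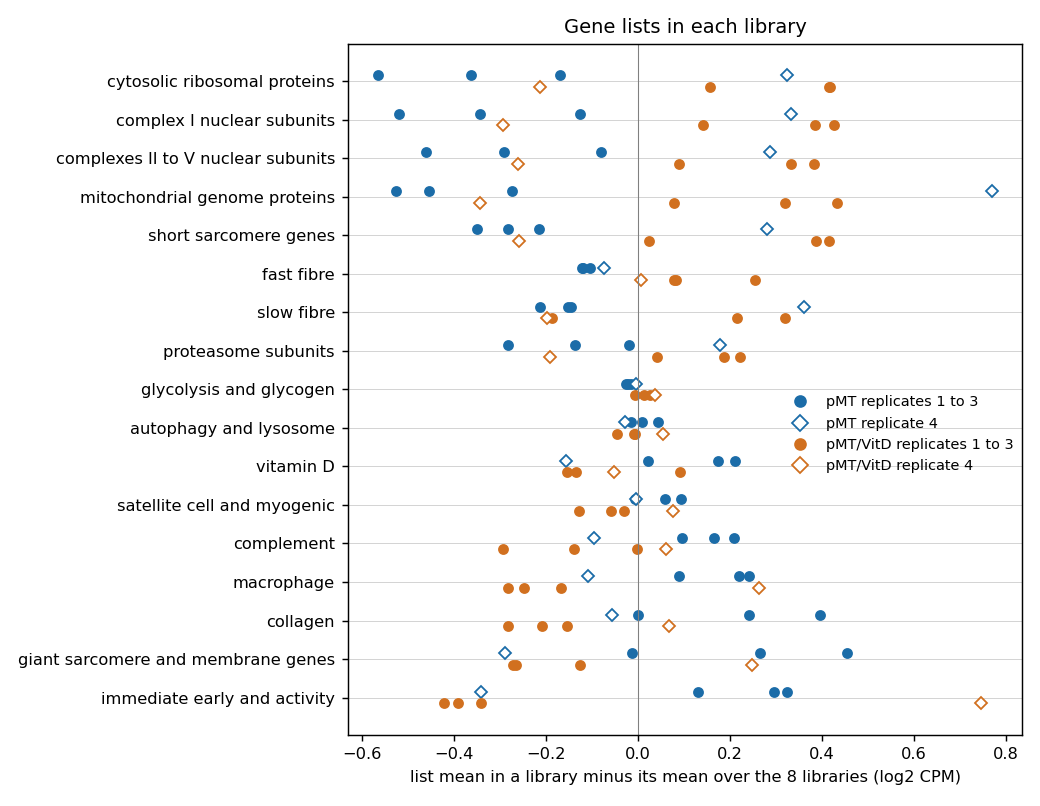
Each point is the mean log2 CPM of a gene list in 1 library minus its mean over the 8 libraries, with the pMT libraries above and the pMT/VitD libraries below each line and open diamonds for replicate 4. For the ribosomal, respiratory and short sarcomere lists the diamond of pMT lies on the side of pMT/VitD replicates 1 to 3 and that of pMT/VitD on the side of pMT replicates 1 to 3, and for collagen, macrophage and giant sarcomere genes the order is turned around. Under library size scaling the proteasome and slow fibre medians turned from above to below 0.

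The lists of short and of giant sarcomere genes lay in opposite directions. Of 22 genes of short sarcomere proteins, 21 were higher in the pMT/VitD group (median log2 fold change 0.38), and without replicate 4 the median was 0.59, with 14 called higher and 1 lower, beside 8.69% and 7.26% of all genes. With the length trend also removed the median was 0.26, with 2 called higher, beside 0.418% of all genes. Acta1, the actin of the thin filament, had 48147, 46514, 46540 and 50616 CPM in the pMT libraries and 60244, 67352, 63880 and 58527 CPM in the pMT/VitD libraries. Ckm, the creatine kinase of muscle, had 25216, 23414, 22299 and 28289 against 31858, 34591, 34265 and 29580 CPM. Neither gene overlapped between the groups, with log2 fold changes of 0.38 (SE 0.14, unadjusted p = 0.0229) and 0.39 (SE 0.15, unadjusted p = 0.0243) and an adjusted p of 0.652 each. Both were called higher without replicate 4 (0.44 and 0.51, adjusted p = 0.0348 and 0.0256), and not with the length trend also removed (adjusted p = 0.0942 and 0.0590). Myl1 and Tpm1, a fast myosin light chain and a tropomyosin, had 0.47 (SE 0.22) and 0.56 (SE 0.31), with pMT replicate 4 above pMT/VitD replicate 4 in both. Without replicate 4 both were called higher (0.77 and 1.02, adjusted p = 0.0195 and 0.0208), and with the length trend also removed Myl1 was (0.37, adjusted p = 0.0493) and Tpm1 was not (0.77, adjusted p = 0.0545). Csrp3, a Z-disc protein that responds to strain, was the exception, with 300, 254, 197 and 171 against 139, 107, 171 and 175 CPM (-0.64, SE 0.21, unadjusted p = 0.0133). It was called lower without replicate 4 (-0.84, adjusted p = 0.0280), and not with the length trend also removed (-1.18, adjusted p = 0.0503).

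Of 22 tested genes of giant sarcomere and membrane proteins, 18 were lower (median -0.23), and 6 were called lower without replicate 4 (median -0.41), beside 7.26% of all genes. With the length trend also removed the median was -0.02 with 0 called, beside 0.754% of all genes, and with 8 libraries and the trend removed it was 0.01. Ttn, which encodes the molecular spring titin, had 2717, 4137, 5512 and 3384 CPM against 2951, 2564, 3869 and 2394 CPM. Its log2 fold change was -0.42 (SE 0.24) with all libraries and 0.10 with the length trend removed, and without replicate 4 it was -0.39 (adjusted p = 0.303) and 0.35 with the trend removed. Neb, the ruler of the thin filament, had -0.39 (SE 0.26), or -0.67 without replicate 4 (adjusted p = 0.0587), and Mybpc2, the fast myosin binding protein, had 0.23 (SE 0.12), or -0.15 under library size scaling without replicate 4. Utrn, the paralog of dystrophin, had 30.2, 34.9, 41.4 and 24.3 against 22.1, 23.6, 23.3 and 27.7 CPM, and it was called lower without replicate 4 (-0.62, SE 0.12, adjusted p = 0.0206), and not with the length trend also removed (-0.17, adjusted p = 0.289).

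Transcripts of the proteins that the study blotted showed no difference past the threshold with all 8 libraries, as was so for all 15711 genes tested. Des, the intermediate filament desmin, had 3825, 3972, 4000 and 3644 CPM in the pMT libraries and 4860, 5417, 4729 and 5438 CPM in the pMT/VitD libraries. The groups did not overlap, replicate 4 included, and the log2 fold change was 0.40 (SE 0.12, unadjusted p = 0.00771, adjusted p = 0.652). Without replicate 4 it was 0.35 (adjusted p = 0.0557), and with the length trend also removed 0.33 (adjusted p = 0.0608). Akt1, a growth kinase, had 91.5, 93.8, 92.4 and 111 against 115, 121, 106 and 111 CPM, with pMT replicate 4 inside the range of the pMT/VitD group (0.22, SE 0.10, unadjusted p = 0.0482). It was called higher without replicate 4 (0.31, adjusted p = 0.0450), and not with the length trend also removed. Its value without replicate 4 was -0.01 under library size scaling.

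Foxo3, a transcription factor of muscle atrophy, had 5.98, 8.04, 11.8 and 1.87 CPM in the pMT libraries and 2.62, 2.88, 3.98 and 10.9 CPM in the pMT/VitD libraries. Each replicate 4 lay outside the other 3 libraries of its group and beyond or among those of the other group. The log2 fold change was -0.44 with all 8 libraries (SE 0.58, adjusted p = 0.827) and -1.44 without replicate 4 (SE 0.26, adjusted p = 0.0197). With the length trend also removed Foxo3 was not called. Prkaa2, a catalytic subunit of the energy sensor AMPK, had -0.16 (SE 0.16), -0.38 without replicate 4 (adjusted p = 0.0446) and 0.01 with the length trend also removed. Prkaa1, Akt2, Myog, Bax and Bcl2 had log2 fold changes of -0.16 to 0.17 with all 8 libraries, and none of them was called in either comparison. Bcl2, an inhibitor of apoptosis, was near the limit of detection at 0.175 to 0.469 CPM.

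The genes with the largest folds among those called without replicate 4 showed how far the replicate 4 libraries departed. Tnmd (tenomodulin), Kera (keratocan) and Fmod (fibromodulin) are matrix genes of tendon and dense connective tissue. Tnmd had 1.02, 0.459, 0.586 and 10.1 CPM in the pMT libraries and 7.87, 6.80, 1.82 and 0.828 CPM in the pMT/VitD libraries. Fmod had 8.97, 8.46, 7.59 and 48.2 against 41.6, 34.5, 12.6 and 8.12 CPM. Kera had 1.21, 0.907, 0.834 and 6.46 against 5.86, 4.67, 2.06 and 1.03 CPM. In all 3 the high libraries were pMT replicate 4 and pMT/VitD replicates 1 and 2, and pMT/VitD replicate 3 lay between them and the rest. With all 8 libraries the log2 fold changes were 0.41 to 0.55 (SE 0.71 to 1.03). Without replicate 4 those of Tnmd, Fmod and Kera were 3.02, 1.83 and 2.10 (adjusted p = 0.0211, 0.0282 and 0.0195). With the length trend also removed they were 2.82, 1.93 and 2.05, and none was called (adjusted p = 0.0570, 0.0644 and 0.0503). In tissue RNA, fewer cells of a type and less RNA per cell cannot be told apart.

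The homeobox gene Hoxc6, a marker of position along the body axis, had 1.31, 2.09, 2.07 and 14.8 CPM in the pMT libraries and 16.5, 17.4, 2.69 and 3.02 CPM in the pMT/VitD libraries. The same 3 libraries were high, and the 7 libraries of the other groups ran from 1.23 to 2.56 CPM. Hoxc8, chosen after its values were seen, had 0.255, 0.387, 0.378 and 5.50 against 5.72, 5.73, 0.530 and 0.497 CPM. Mybph, a myosin binding protein that has the largest log2 fold change of the developmental sarcomere list, had 34.1, 40.6, 51.2 and 804 CPM against 961, 1031, 32.8 and 48.4 CPM. It was 1.16 with all 8 libraries (SE 1.32, adjusted p = 0.807) and 4.01 without replicate 4 (SE 1.22, adjusted p = 0.0803). Myl3, the slow myosin light chain, had 611, 621, 609 and 1510 against 1440, 1280, 627 and 629 CPM. For Mybph and Myl3, pMT/VitD replicate 3 was at the level of pMT replicates 1 to 3, so pMT/VitD replicates 1 to 3 were not uniform.

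Among the lower genes with the largest folds, Hspa1a, the inducible heat shock protein Hsp70, had 54.4, 43.7, 22.5 and 9.93 CPM in the pMT libraries and 11.6, 9.94, 11.3 and 53.5 CPM in the pMT/VitD libraries. Its near copy LOC108348108 had the same order, and reads may be divided between them. With all 8 libraries the log2 fold change of Hspa1a was -0.60 (SE 0.65), and without replicate 4 it was -1.87 (SE 0.29, adjusted p = 0.0195). With the length trend also removed it was -1.86 and not called (adjusted p = 0.0503). Mn1, a transcriptional coregulator, Xylt1, which starts proteoglycan chains, and Mlxip, a glucose-sensing transcription factor, had -1.94, -1.72 and -1.71 without replicate 4. With the length trend also removed they had -1.77, -1.43 and -1.48, and none was called (adjusted p = 0.0590, 0.0562 and 0.0739). In Mlxip the libraries were 25.2, 44.5, 67.7 and 6.50 against 10.8, 11.6, 19.5 and 75.4 CPM, so pMT/VitD replicate 4 was the highest of the 8 and pMT replicate 4 the lowest.

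Activity-induced genes were low in pMT replicate 4 and high in pMT/VitD replicate 4. Of 22 immediate early genes, 16 were lower (median log2 fold change -0.09), and 5 were called lower without replicate 4 (median -0.46), beside 7.26% of all genes. After removal of the length trend 3 were (median -0.44), beside 0.336%. Fos had 8.46, 8.09, 8.60 and 2.21 CPM in the pMT libraries and 2.97, 3.97, 2.37 and 36.6 CPM in the pMT/VitD libraries. The value of pMT/VitD replicate 4 was above all the other 14 libraries, since the remaining groups ran from 16.2 to 21.9 CPM. The log2 fold change of Fos was 0.74 with all 8 libraries (SE 0.86, adjusted p = 0.808) and -1.42 without replicate 4 (SE 0.18, adjusted p = 0.0195). Atf3, a stress-induced factor, had 103, 62.2, 12.4 and 8.86 against 8.73, 11.4, 9.55 and 59.96 CPM (-1.06, SE 0.87). Bhlhe40, a repressor of the clock, was called lower without replicate 4 also with the length trend removed (-0.84 and -0.83, adjusted p = 0.0195 and 0.0479).

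Most matrix, complement and macrophage genes were lower in the pMT/VitD group without passing the threshold. Of 29 collagen genes 27 were lower (median log2 fold change -0.26), of 28 matrix and fibroblast genes 24 (median -0.22), of 26 complement genes 22 (median -0.20) and of 15 macrophage genes 13 (median -0.23). Without replicate 4 these lists had 11, 10, 10 and 6 genes called lower and 1, 3, 2 and 0 called higher, beside 7.26% of all genes called lower and 8.69% called higher. With the length trend also removed the medians were -0.31, -0.27, -0.32 and -0.49, with 0, 0, 2 and 0 genes called. The 2 complement genes were called lower, beside 0.336% of all genes. Col4a1, a basement membrane collagen, had 321, 354, 397 and 222 CPM against 216, 194, 246 and 374 CPM, and Fbn1, the microfibril protein fibrillin, had 230, 244, 258 and 171 against 147, 121, 195 and 209 CPM. Lox, the collagen crosslinking oxidase, had 13.5, 11.3, 11.7 and 9.51 against 5.72, 6.96, 8.87 and 10.02 CPM, and all 3 were called lower without replicate 4.

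Col7a1, the anchoring fibril collagen, was 1 of 2 collagens that were higher, with 11.7, 11.1, 10.3 and 16.3 against 20.5, 25.3, 14.3 and 12.4 CPM (log2 fold change 0.56, SE 0.24, and 0.87 without replicate 4, adjusted p = 0.0232). Masp1, a protease of the lectin pathway of complement, had 0.33 (SE 0.11, unadjusted p = 0.0141), with 123, 109, 95.6 and 121 against 139, 144, 152 and 129 CPM and no overlap. Cd163, a receptor of resident macrophages, had 18.9, 23.3, 29.3 and 11.9 against 12.5, 11.9, 17.8 and 23.5 CPM. The 7 macrophage markers, none of them at 0, were lower in all 7 cases and summed to 149 to 196 CPM in the pMT group and 142 to 191 CPM in the pMT/VitD group. The 6 endothelial markers were likewise lower in all 6 and summed to 203 to 285 and 193 to 248 CPM. In both marker sets pMT replicate 4 was the lowest of its group and pMT/VitD replicate 4 the highest. The 6 Schwann cell markers summed to 116 to 138 and 109 to 130 CPM, with 0 called without replicate 4, beside 15.9% of all genes. The 6 erythrocyte markers, of which 5 are in the table, summed to 917 to 1652 and 811 to 1927 CPM. The part of these cell types in the other differences was not tested.

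Among the remaining lists with 8 libraries, the median log2 fold change of fast fibre genes was 0.25, that of slow fibre genes 0.14 and that of proteasome genes 0.11, the last 2 being -0.03 and -0.07 under library size scaling. Denervation and synapse genes (0.03), satellite cell and myogenic genes (-0.08), autophagy and lysosome genes (-0.02), fatty acid oxidation genes (0.04), glycolysis and glycogen genes (0.06), calcium handling genes (0.01), heat shock genes (-0.02), Akt, AMPK and mTOR genes (-0.03), Bcl2 family genes (-0.04), clock genes (-0.07), adipocyte genes (0.08), antioxidant genes (0.09), MHC class II genes (-0.04) and interferon-stimulated genes (-0.06) had medians within 0.1 of 0. The 8 tested T cell and B cell genes had 0.11, with 5 higher and 3 lower. Endothelial genes had -0.20, Schwann cell genes -0.15 and erythrocyte and platelet genes 0.32. The fast fibre list had a median relative length of -0.18. Without replicate 4 its median was 0.23, with 6 called higher and 0 lower, beside 8.69% and 7.26% of all genes. With the length trend also removed it was 0.22, with 2 called higher, beside 0.418%. Its means were 12.96, 12.98, 12.97 and 13.01 against 13.17, 13.16, 13.34 and 13.09 log2 CPM. Under library size scaling without replicate 4 its median was -0.09. Ubiquitin ligase and Foxo genes had -0.15, with 6 called lower and 1 higher without replicate 4, beside 7.26% and 8.69% of all genes, and 1 called lower with the length trend also removed (median -0.07), beside 0.336%. Among them Fbxo32, the atrophy ligase atrogin-1, had 17.1, 31.0, 48.0 and 9.30 CPM against 14.9, 14.7, 14.6 and 28.3 CPM (-0.54, SE 0.45). Cacna2d1, a subunit of the calcium channel of the T tubule, had 18.8, 208, 212 and 98.1 CPM beside 274, 316, 346 and 199 CPM in the pMT group (-1.08, SE 0.58, unadjusted p = 0.0935). The imprinted RNA H19 had 4382, 3981, 3375 and 5265 against 5940, 6110, 5447 and 4223 CPM (0.35, SE 0.18), and without replicate 4 it was called higher with the length trend in place (0.58, adjusted p = 0.0250) and removed (0.59, adjusted p = 0.0493).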

How the data were processed

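Total RNA was sequenced in paired-end mode. Per the labels, the submitters used Trimmomatic 0.38, then HISAT2 2.1.0 on the rn6 build and StringTie 2.1.3b. They deposited 1 table of 37991 genes with raw read counts, TPM and FPKM per library. Every test used the counts deposited by the authors. The TPM values deposited by the authors served only for relative length, and the FPKM values deposited by the authors were left out. Strand handling is not given in the sources used here.

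Counts of the 8 libraries were filtered with filterByExpr and tested in R 4.3.3 with edgeR 4.0.16 (TMM, glmQLFit robust, glmQLFTest). A gene was called where its p, adjusted by Benjamini-Hochberg, was under 0.05. Alternatives used DESeq2 1.42.0 and limma 3.58.1. Unless another tool is named, each p of a gene is from the quasi-likelihood test. SE is the standard error of the log2 fold change, taken as its size over the square root of F. Log2 CPM used a prior count of 2. The length trend was a lowess curve (span 0.3) of each library's deviation on log2 relative length, removed as an offset. Named genes were the 8 higher and 8 lower with the smallest p and no overlap, the 4 most abundant and the extreme members of each of 38 lists, the vitamin D list, the blotted proteins and the 6 higher and 6 lower with the largest folds without replicate 4. The fits were tested on simulated data. Members, lists, comparisons and tests were chosen with earlier results of these data known.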

Additional observations from a re-analysis of the deposited data

Results flagged for a closer look

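For the genes named, 8 gene lists and 4 measures of the libraries, each group of 4 was searched for a library far from the other 3, with a gap above 0.829 of the range of the group (Dixon's 95% value). Of 232 groups searched, 35 had such a library, and chance gives about 1 in 20. The library was pMT replicate 4 in 20 cases and pMT/VitD replicate 4 in 13. These measures are not independent, since many were named for the size of their differences without replicate 4.

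In pMT replicate 4, most such genes were far above the other 3 libraries, among them Tnmd (10.1 against 0.459 to 1.02 CPM), Kera (6.46 against 0.834 to 1.21), Fmod (48.2 against 7.59 to 8.97), Chad (2.43 against 0.0521 to 0.255), Hoxc6 (14.8 against 1.31 to 2.09), Hoxc8 (5.50 against 0.255 to 0.387), Hoxd9 (27.6 against 11.7 to 13.5), RGD1566401 (15.6 against 3.09 to 4.87), Mybph (804 against 34.1 to 51.2), Myl3 (1510 against 609 to 621), Rpl37 (528 against 258 to 299), Akt1 (111 against 91.5 to 93.8), Hba1 (606 against 366 to 402), Cyp27a1 (31.1 against 25.3 to 26.1) and COX1 (72681 against 29618 to 36645). COX3 was at 35598 against 13186 to 16209 CPM and ATP8 at 4982 against 2521 to 2929 CPM, with a mitochondrial genome share of 22.6% against 11.1% to 12.9%. Fos was lower there (2.21 against 8.09 to 8.60 CPM), as was Gabpa (15.3 against 20.9 to 21.9 CPM). Chad, Hoxc8, Hoxd9 and Egr1 were chosen after their values were seen.

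In pMT/VitD replicate 4, 11 genes were far above the other 3 libraries. They were Fos (36.6 against 2.37 to 3.97 CPM), Egr1 (23.4 against 3.71 to 4.47), Atf3 (59.96 against 8.73 to 11.4), Hspa1a (53.5 against 9.94 to 11.6), LOC108348108 (46.0 against 8.92 to 10.5), Mlxip (75.4 against 10.8 to 19.5), RGD1561161 (15.3 against 1.70 to 3.98), Foxo3 (10.9 against 2.62 to 3.98), Rxra (40.5 against 12.8 to 15.8), Thbd (34.3 against 23.8 to 24.5) and Fbxo32 (28.3 against 14.6 to 14.9). Its TMM factor was 1.04 against 0.895 to 0.915, and Rps2 was lower (1017 against 1305 to 1356 CPM). In the other libraries, Mki67 was lower in pMT replicate 1 (5.13 against 6.62 to 6.79 CPM) and Cyp2r1 in pMT replicate 3 (0.143 against 0.242 to 0.255 CPM).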

How the results depend on the processing

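With 8 libraries the quasi-likelihood test called 0 genes under RLE or library size scaling, with either other filter on counts, with all 15 libraries in the fit, with the length trend removed and without any one library (532 to 2684 genes at an unadjusted p under 0.05). DESeq2 called 67, limma voom with quality weights 5403, and the test without replicate 4 of both groups 2517, or 119 with the length trend removed. Without replicate 4, library size scaling gave 6197, and leaving out 1 more library gave 0 to 4458. The latter tests have 2 against 3 libraries. The other alternatives without replicate 4 gave 2279 to 3446 calls. Same-numbered libraries correlated in their deviations from the group means at -0.11, -0.51, 0.03 and -0.81, and the other pairs across the groups at -0.63 to 0.77. Whether replicate numbers stand for shared handling was not tested. The replicate block left 0 calls with 8 libraries (380 at an unadjusted p under 0.05, and 586 with the length trend also removed) and gave 3291 without replicate 4. With the block, the rule of a 2-fold change and an unadjusted p gave 24 genes in the quasi-likelihood test in place of 54 by exactTest. That rule gave 35 in the quasi-likelihood test with the length trend removed, 17 with at least 10 counts in every library, 236 with any count, 0 with the adjusted p, 997 without the fold threshold, 574 without replicate 4 of both groups and 45 to 202 without 1 library. The cause of these differences was not tested.

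The difference in length trend was below 0 with an exact permutation p over 0.05 in every alternative. Where a group had fewer than 4 libraries, that test cannot reach a p under 0.05. The gap between distances to the own and the other group kept its sign. Of 798 alternative values of the 38 list medians, 93 moved by more than the SD between replicates. For the vitamin D, respiratory, mitochondrial genome, ribosomal, sarcomere and collagen lists these were the medians of complex I (0.71), complexes II to V (0.61), mitochondrial genome proteins (0.73) and collagen (-0.59) without replicate 4 of both groups, of mitochondrial genome proteins (0.68) and collagen (-0.57) with limma voom, of vitamin D (-0.19) and collagen (-0.44) under library size scaling, and of vitamin D (-0.43), collagen (-0.90) and giant sarcomere genes (-0.73) under library size scaling without replicate 4. Without 1 library the collagen median ran from -0.46 to -0.18.

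Log2 fold changes larger than their SE that changed sign were those of Ttn (0.10, and 0.094 with the block), Neb (0.0011 and 0.0014), ATP8 (-0.024 and -0.064), Ppargc1a (0.042 and 0.035) and Prkaa2 (0.072 and 0.063) with the length trend removed, and without replicate 4 in that setting Ttn (0.35), ATP8 (-0.10), Ppargc1a (0.20), Prkaa2 (0.013) and Hba1 (-0.032). Akt2 was -0.042 under library size scaling, -0.013 without replicate 4 and -0.0059 with limma voom. Under library size scaling without replicate 4, Mybpc2 was -0.15, Rxrg -0.12, Atp5b -0.0019, Rpl3 -0.049 and Akt1 -0.0077. The shallowest library had 52342134 counts, and low genes such as Vdr and Bcl2 rest on few counts.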

Other observations

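Over 13326 genes with a mean of at least 50 counts, the share of genes for which a library lay between a given pair of others was computed for all 1365 choices of a library and a pair among the 15, and its median was 32.0%. The uninjured control replicate 1 lay between pMT/VitD replicates 3 and 4 for 66.4% of genes. The surgery replicates 1 and 2 lay between pMT/VitD replicate 4 and VitD replicate 1 for 70.5% and 70.3%, the highest shares of all. Chad, a cartilage and tendon matrix gene chosen after its values were seen, had 0.255, 0.206, 0.0521 and 2.43 CPM in the pMT libraries and 2.46, 1.42, 0.347 and 0.276 CPM in the pMT/VitD libraries, and Hoxd9 had 13.5, 13.0, 11.7 and 27.6 against 26.2, 26.5, 15.6 and 13.6 CPM.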
